A study of Mus musculus with 14 samples.

Results

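H3K27ac regions that lie next to or across the repressive mark H3K27me3 were examined in mouse regulatory T cells with and without Slc31a1, the gene of the copper importer CTR1. The H3K27ac peaks of control chimera 2 and knockout chimera 2 were merged on chromosomes 1 to 19 wherever they shared at least 1 bp, which gave 34256 regions. A region was taken as a border region when its edge lay within 5000 bp of an H3K27me3 peak of control chimera 2 or knockout chimera 2, or when it overlapped such a peak. In all, 1264 regions met this rule, which is 3.69% of the merged regions. The regions were thus chosen by the measured peak positions of both marks in chimera 2, and those positions are described without a test. The other 32992 regions served for comparison.

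H3K27ac is placed by acetyltransferases such as p300 and CBP on nucleosomes at active promoters and enhancers. H3K27me3 is placed by EZH2 in Polycomb repressive complexes and spreads over silent genes. Both marks modify the same lysine of histone H3, so a single histone tail cannot carry both, and the place where a chromosome passes from one mark to the other is a boundary between active and Polycomb-silenced chromatin.

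The marks were profiled by CUT&Tag, in which an antibody brings a transposase to the marked nucleosomes and the DNA cut there is sequenced. Control cells came from mice labelled Foxp3YFPcre;wt, and knockout cells from mice labelled Foxp3YFP-Slc31a1△;wt, both called chimeras in the sample titles. Both labels name yellow fluorescent protein (YFP) with Foxp3, the master transcription factor of regulatory T cells. The knockout label also names a deleted Slc31a1 allele. The Cre recombinase is named in the control label only, so the labels do not state that the knockout cells carry it. The wt part of both labels is not interpreted here. The cells were sorted by flow cytometry, 140000 per sample, and no treatment or age is given. H3K27ac was measured in chimeras 2, 3 and 4 of each genotype and H3K27me3 in chimeras 1 and 2. The labels do not say that every sample is from its own animal, so p-values measure only the spread between these samples, which may be technical.

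Each library was deposited as its own list of peaks, with no read counts, so a peak list states where enrichment was called and how long it is. Sequencing depth is unknown. The H3K27ac lists hold 21326 to 32012 peaks, which cover 36.9 to 46.3 Mb of chromosomes 1 to 19, the shortest being that of knockout chimera 4. The H3K27me3 lists differ more. Control chimera 1 stands apart with 7512 peaks over 4.89 Mb and a lowest −log10 p of 2.02, where the lowest values of the other 3 lists are 9.01 to 9.02. Control chimera 2 has 40.1 Mb, knockout chimera 1 has 30.4 Mb and knockout chimera 2 has 62.0 Mb under H3K27me3 peaks. Coordinates are those of mm39. No annotation of that build was used, so regions are named by position, and neither the deletion of Slc31a1 nor marker genes of regulatory T cells were checked.

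The marks seldom came close together, and the sides of H3K27ac regions thinned out towards H3K27me3. The gap was measured from the edge of the merged H3K27ac region to the nearest H3K27me3 peak on that side. Against the control chimera 2 list, 25 sides had a gap under 1 kb, 97 of 1 to 2 kb, 166 of 2 to 3 kb, 229 of 3 to 4 kb and 249 of 4 to 5 kb. Just beyond the limit of the rule the number rose again, to 303 at 5 to 6 kb. From there it no longer climbed, with 269 at 9 to 10 kb. The knockout chimera 2 list had more sides at each distance and was filled closer in, with 75, 199, 282, 294 and 299 sides in the same 5 bins, then 372 at 5 to 6 kb and 327 at 9 to 10 kb. A merged region can hold H3K27ac of 1 genotype alone, so a gap can run between marks of different genotypes. In chimera 2, 224 of the 1264 border regions had a peak in the control H3K27ac list only and 194 in the knockout H3K27ac list only.

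**Figure D1:**
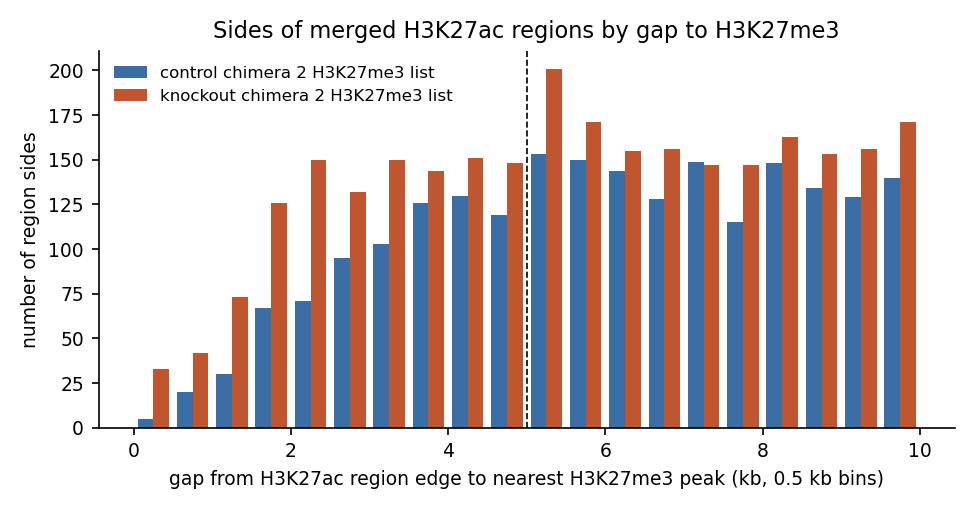
Number of sides of the 34256 merged H3K27ac regions (vertical axis) by the gap to the nearest H3K27me3 peak in kb (horizontal axis, bins of 0.5 kb), for the H3K27me3 lists of control chimera 2 (blue) and knockout chimera 2 (orange). The dashed line is the 5 kb limit of the rule. Counts climb from the shortest gaps. They are highest at 5000 to 5500 bp, at 153 in the control and 201 in the knockout list. Between 2 and 5 kb the knockout list stays at 132 to 151, while the control list still climbs, from 71 to 119.

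Among the flanked sides, the median gap was 3471 bp in the control list (766 sides, quartiles 2463 and 4220) and 3061 bp in the knockout list (1149 sides, quartiles 2051 and 4029). A gap under 1 kb was found at 3.26% of the flanked sides in the control list and at 6.53% in the knockout list. The largest gaps inside the limit were 4979, 4983 and 4987 bp, and the smallest outside it were 5004, 5005 and 5005 bp, so the limit cuts through a continuous range. The H3K27me3 lists of chimera 1, which the rule did not use, thin out in the same way. Knockout chimera 1 had 9, 47, 98, 140 and 153 sides in the first 5 bins of 1 kb, then 203 at 5 to 6 kb and 210 at 9 to 10 kb. The short list of control chimera 1 had 1, 12, 28, 39 and 37, then 59 and 78.

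The flank was on a single side in most border regions, with no preference for either. A side counted as flanked when either chimera 2 list had H3K27me3 there. H3K27me3 lay on the side of lower coordinates alone in 573 regions (45.3%) and on the side of higher coordinates alone in 569 (45.02%). It lay on both sides in 60 regions (4.75%) and overlapped the H3K27ac region in 62 (4.91%). The share of H3K27ac regions that were border regions ran from 2.13% on chromosome 11 to 5.02% on chromosome 7. Most stood alone: chained at distances up to 50 kb they formed 1012 loci, of which 828 held a single border region and 3 held 5 or more.

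Border regions were seldom broad, and the H3K27me3 they faced was wide. Their median width was 866 bp (quartiles 500 and 1414), against 849 bp (446 and 1734) for the other H3K27ac regions. Only 11 border regions (0.870%) were 5 kb or wider, where 1368 other regions (4.15%) were. Broad H3K27ac regions of that kind are typical of clustered enhancers and strong promoters. The H3K27me3 peaks of both chimera 2 libraries were also joined into stretches where they lay within 3 kb of each other. The 1153 stretches that faced a border region had a median width of 4187 bp, and 284 of them (24.6%) were 10 kb or wider. The 17429 stretches that faced none had a median of 2597 bp, and 2721 (15.6%) reached 10 kb.

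In strength the H3K27ac peaks of border regions were not far from the rest. By the authors' deposited −log10 p, their median percentile within each list lay between 48.1 (knockout chimera 4) and 57.3 (control chimera 2), and that of the peaks on other regions between 49.7 and 57.0. Border peaks ranked above the others in the lists that chose the regions, at 57.3 against 49.7 in control and 55.7 against 49.7 in knockout chimera 2. Outside the rule they ranked below. Control chimeras 3 and 4 had 53.6 against 55.6 and 55.3 against 56.15. Knockout chimeras 3 and 4 had 54.3 against 57.0 and 48.1 against 55.1. The authors' deposited fold enrichment of border peaks was lower in all 6 lists, for example with a median of 3.75 against 4.36 in control chimera 2 and 3.78 against 4.64 in knockout chimera 4.

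A core of border regions was found again in every library. An H3K27ac peak in all 6 lists together with H3K27me3 within 5 kb in all 4 lists was found at 21 border regions, and at 101 when the short list of control chimera 1 was set aside. The 12 of the 21 with the highest mean −log10 p give an account of such borders. At chr17:56468601-56472038, the strongest, the H3K27ac peaks covered 3099, 3199 and 3050 bases in control chimeras 2, 3 and 4, and 3438, 2806 and 2747 bases in knockout chimeras 2, 3 and 4. The groups overlapped. Its H3K27me3 neighbour on the side of lower coordinates stood 3151 and 2895 bp away in control chimeras 1 and 2, and 4169 and 2893 bp away in knockout chimeras 1 and 2.

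At chr7:12771299-12772927 the 4 gaps were almost equal, at 3833 and 3861 bp in control chimeras 1 and 2 and 3915 and 3706 bp in knockout chimeras 1 and 2. At chr9:46183902-46185364 they were 3378 and 3093 bp in the controls against 3253 and 2413 bp in the knockouts. Other borders were less constant. At chr4:148224319-148225557 the gap was 4441 and 4446 bp in the controls against 4306 bp in knockout chimera 1, but 1200 bp in knockout chimera 2. At chr13:86194330-86194951 the gaps were 3277 and 2160 bp in the controls against 2493 and 1301 bp in the knockouts. In both of these regions knockout chimera 2 alone lay below all the other libraries. These 12 regions were chosen for having both marks in every list, so no test of their H3K27ac is given.

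The 60 regions with H3K27me3 on both sides had it within 5 kb of each edge when both chimera 2 lists were pooled. The 2 flanks can come from different lists, and the H3K27ac can come from 1 genotype alone. Such a region thus need not have H3K27me3 within 5 kb on both sides in a single list. The strongest was chr17:18058232-18059384, with 1126, 776 and 945 bases of H3K27ac in the controls against 1000, 824 and 522 in the knockouts, which overlap. Its gaps in knockout chimera 2 were 3977 bp on the side of lower and 4701 bp on the side of higher coordinates, and 6221 and 8520 bp in control chimera 2. At chr9:20645658-20646951 the gap towards lower coordinates was small in 3 lists, at 527 bp in control chimera 2, 1569 bp in knockout chimera 1 and 569 bp in knockout chimera 2. The H3K27ac there covered 1194, 1294 and 1184 bases in the controls against 1287, 1248 and 1224 in the knockouts, again with overlapping groups.

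The libraries that the rule did not use showed whether the regions recur. In control chimeras 3 and 4, an H3K27ac peak was present at 819 (64.8%) and 895 (70.8%) of the 1264 border regions, close to the 68.6% and 70.4% of other regions. In knockout chimeras 3 and 4 it was present at 698 (55.2%) and 493 (39.0%) border regions, where other regions had 68.4% and 56.7%. The share of border regions minus that of other regions was −13.2 and −17.7 percentage points in the knockout libraries, and −3.77 and 0.451 points in the controls. With 2 libraries a genotype outside the rule, this difference was not tested. The list of knockout chimera 4 is the shortest, and other regions recurred least often there too. Peaks in all 6 lists were found at 442 border regions (35.0%) and at 14590 other regions (44.2%).

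The lower recurrence in the knockouts followed which H3K27me3 list bordered the region. Of the 1264, 669 bordered H3K27me3 in both chimera 2 lists, 485 in the knockout list alone and 110 in the control list alone. Regions bordered in the knockout list alone had an H3K27ac peak in 62.1% and 68.7% of cases in control chimeras 3 and 4, and in 51.5% and 35.5% in knockout chimeras 3 and 4. Those bordered in the control list alone had 67.3% and 71.8% in control chimeras 3 and 4, and 67.3% and 57.3% in knockout chimeras 3 and 4, which is near the shares of other regions. Those bordered in both lists had 66.4%, 72.2%, 55.9% and 38.6% in the same order.

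The neighbouring H3K27me3 also recurred. In knockout chimera 1, 425 border regions (33.6%) had an H3K27me3 peak within 5 kb, against 18 of the 32992 other regions (0.0546%). In control chimera 1 the numbers were 110 (8.70%) and 8 (0.0242%), in a list that is much shorter. Knockout chimera 1 held H3K27me3 at 334 of the 669 regions bordered in both chimera 2 lists (49.9%), at 88 of the 485 bordered in the knockout list alone (18.1%) and at 3 of the 110 bordered in the control list alone (2.73%). Control chimera 1 held it at 102 (15.2%), 6 (1.24%) and 2 (1.82%) of them.

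**Figure D2:**
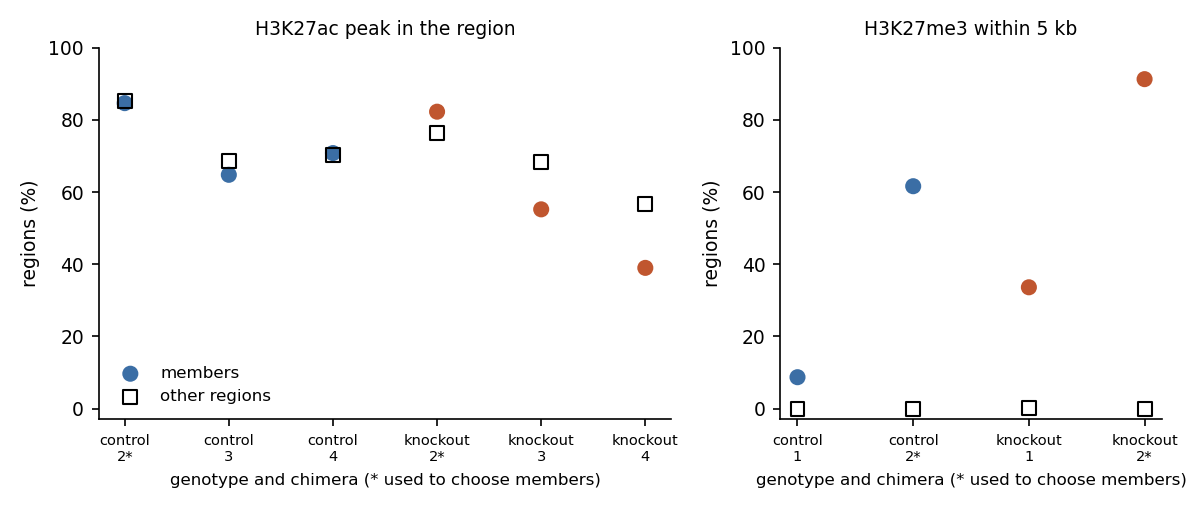
Share of border regions (filled circles, blue for control and orange for knockout) and of other H3K27ac regions (open squares) with an H3K27ac peak (left) or with H3K27me3 within 5 kb (right), in percent, in each library. Stars mark the chimera 2 libraries that chose the regions. In knockout chimeras 3 and 4 the circles lie below the squares, at 55.2% and 39.0% against 68.4% and 56.7%.

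Whether the border moves was asked first of the H3K27me3 edge. In 653 flanked sides a border was present within 5 kb in both chimera 2 lists. There the H3K27me3 edge of the knockout lay nearer to the H3K27ac region by a median of 146 bp (quartiles −2 and 749), nearer at 467 sides, farther at 165 and in the same place at 21. The nearest peak of each list was compared, and these need not be the same H3K27me3 peak. A shift can thus be a further peak in a list rather than a moved edge. Shifts over 500 bp went towards H3K27ac at 208 sides and away from it at 33. These are the lists that chose the regions, with 1 library a genotype, and no test was made.

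The other knockout library did not move the same way. Knockout chimera 1 against control chimera 2 gave a median of −71 bp over 323 sides, with the edge nearer to H3K27ac at 118 and farther at 197. On the 309 sides with a border in all 3 lists, the median gap was 3168 bp in control chimera 2, 2531 bp in knockout chimera 2 and 3472 bp in knockout chimera 1, so the control lay between the knockouts. Both knockouts were nearer than the control at 104 of the 309 sides, both were farther at 45, and at 138 knockout chimera 2 was nearer and knockout chimera 1 farther. Control chimera 1 was too short a list for such a comparison.

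Edges of H3K27me3 that faced no H3K27ac lay on the same side of the control in each knockout list. Where H3K27me3 peaks of the 2 lists overlapped, the edges facing H3K27ac within 5 kb lay outward in knockout chimera 2 by a median of 65.0 bp (840 edges, 67.4% outward), and the edges facing none by 60.5 bp (59180 edges, 66.5% outward). In knockout chimera 1 the medians were −48.5 bp (388 edges, 38.7% outward) and −19 bp (41858 edges, 43.7% outward), so the facing edges lay farther in there; these differences between facing and other edges were not tested. The order of the 3 lists in H3K27me3 coverage, with 30.4 Mb in knockout chimera 1, 40.1 Mb in control chimera 2 and 62.0 Mb in knockout chimera 2, is also the order of how far their edges reach. The part of coverage in the shift was not tested beyond cutting both chimera 2 lists to equal length, which gave 118 bp over 605 sides.

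**Figure D3:**
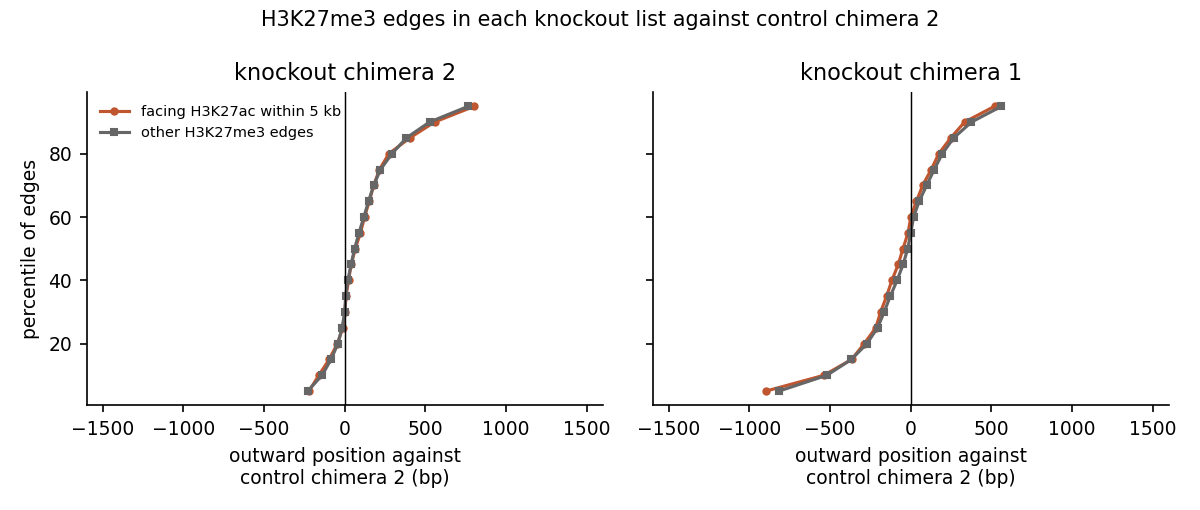
Outward position of H3K27me3 edges in knockout chimera 2 (left) and knockout chimera 1 (right) against control chimera 2, in bp (horizontal axis), as percentiles of edges from 5 to 95 (vertical axis), for edges facing an H3K27ac region within 5 kb (orange) and all others (grey). The curves of facing and other edges lie on the same side of 0 at the median, with medians of 65.0 and 60.5 bp on the left and −48.5 and −19 bp on the right.

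The H3K27ac edge moved little in chimera 2. On the 472 sides where both H3K27ac lists had a peak, the knockout edge lay 22.5 bp nearer to H3K27me3 at the median (quartiles −15.0 and 117), and shifts over 500 bp were found at 14 sides. Measured between each genotype's own edges, the median gap was 3380 bp in control and 2866 bp in knockout chimera 2. It was narrower in the knockout at 341 sides and wider at 130, with a median change of −212 bp.

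Over the 6 H3K27ac libraries, the edge that faced H3K27me3 was compared with the opposite edge of the same region, in the 425 border regions flanked on a single side with a peak in every library. The mean distance of the facing edge from the region's centre was 837, 818 and 847 bp in control chimeras 2, 3 and 4 and 881, 847 and 631 bp in knockout chimeras 2, 3 and 4. For the opposite edge it was 845, 774 and 795 bp in the controls against 855, 875 and 672 bp in the knockouts. The facing edge minus the opposite edge came to −7.80 bp in control chimera 2 and 25.8 bp in knockout chimera 2, the libraries that chose the regions. Outside the rule it came to 44.6 and 51.6 bp in control chimeras 3 and 4 and −27.9 and −40.6 bp in knockout chimeras 3 and 4, which do not overlap and differ by −82.4 bp; 2 against 2 libraries cannot pass an exact test (p = 0.333, the smallest possible). Over all 6 libraries the means were 29.5 ± 32.5 bp (SD, n = 3) and −14.2 ± 35.3 bp (SD, n = 3), with overlapping groups and a difference of −43.7 bp (two-sided exact permutation test, p = 0.2, where 3 against 3 libraries cannot go below 0.1). The medians over edges differed by −1.50 bp. A shift of the facing edge was thus not established by these tests.

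**Figure D4:**
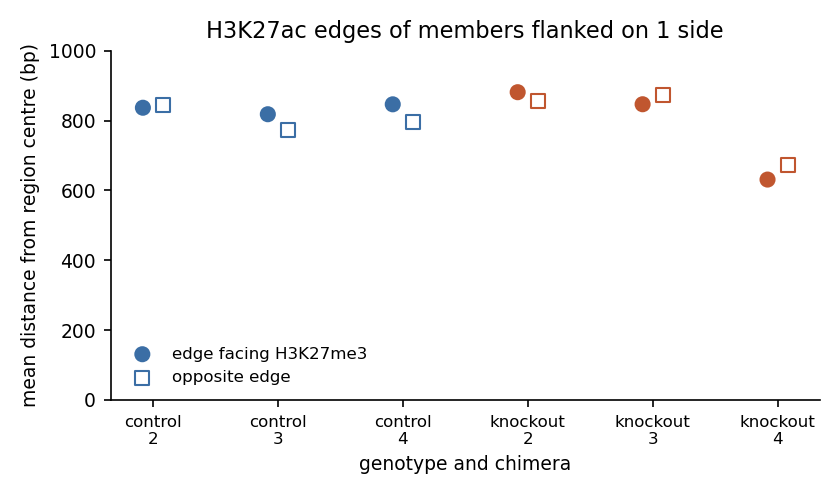
Mean distance from the region's centre, in bp, of the H3K27ac edge that faces H3K27me3 (filled circles) and of the opposite edge (open squares) in the 425 border regions flanked on a single side with a peak in all 6 libraries, by genotype and chimera. The edges lie within about 52 bp of each other in every library, and knockout chimera 4 is lowest for both, at 631 and 672 bp.

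A limma fit over the positions of 30064 H3K27ac edges called 2 edges inward in the knockout (0.00665%) and 0 outward (0.0%) at an adjusted p under 0.05. None of the 449 flanked edges that were tested was called. At an unadjusted p under 0.05, 23 of them (5.12%) lay inward and 7 (1.56%) outward, against 4.14% and 2.31% of all edges. Without knockout chimera 2, 9 flanked edges (2.00%) were called inward and 2 (0.445%) outward, where all edges had 0.828% inward and 3.76% outward. Without control chimera 2, 1 flanked edge (0.223%) was called inward, against 0.0366% of all. With chimeras 3 and 4 only, which the rule did not use, 5 (1.11%) were called inward and 1 (0.223%) outward, against 0.386% and 2.78% of all edges. Called flanked edges thus leaned inward in these settings. Called edges as a whole leaned outward without knockout chimera 2 and with chimeras 3 and 4 only. Without control chimera 2 they leaned inward, with 0.0% called outward. These differences were not tested. In the fit of all 6 libraries the median change was −0.09 kb at flanked edges and −0.03 kb at all edges. It was −0.17 and −0.05 kb without knockout chimera 2, and −0.07 and −0.02 kb without control chimera 2. With chimeras 3 and 4 only it was −0.15 and −0.05 kb. The knockout libraries lay entirely inward of the control libraries at 38 of the 449 flanked edges (8.46%) and entirely outward at 23 (5.12%), where all edges had 5.93% and 9.23%. For example, the higher edge of chr17:8428016-8430120 stood 1052, 1494 and 1514 bp from the centre in the controls against 910, 688 and 466 bp in the knockouts, with H3K27me3 1133 bp beyond the merged region in knockout chimera 2. In the other direction, the higher edge of chr5:139916398-139918630 stood 520, 296 and 534 bp out in the controls against 1116, 1242 and 952 bp in the knockouts. The groups do not overlap in either case, and neither edge passed the test (limma adjusted p = 0.586 and 0.377).

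The amount of H3K27ac on border regions was next compared between genotypes. Border regions held 2.71%, 2.33% and 2.44% of the bases under H3K27ac peaks in merged regions in control chimeras 2, 3 and 4, and 2.79%, 2.13% and 1.67% in knockout chimeras 2, 3 and 4. The 2 highest shares are those of the chimera 2 libraries, which chose the regions. In chimeras 3 and 4 both controls lay above both knockouts, with a difference of −0.489 percentage points, and 2 against 2 libraries cannot pass an exact test (p = 0.333, the smallest possible). Over all 6 libraries the groups overlapped, with means of 2.50 ± 0.197% (SD, n = 3) and 2.197 ± 0.566% (SD, n = 3), a difference of −0.299 percentage points (two-sided exact permutation test, p = 0.5).

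Region by region, a limma fit over 25756 regions with peaks in at least 3 of the 6 libraries called 4.66% of them lower and 2.03% higher in the knockout at an adjusted p under 0.05. Of the 1264 border regions, 894 were tested; 40 (4.47%) were called lower and 11 (1.23%) higher. The fit includes the chimera 2 libraries that chose the regions, so these calls are a description. With chimeras 3 and 4 only, 0 border regions and 0 of all regions were called. At an unadjusted p under 0.05, 191 border regions (21.4%) were lower and 26 (2.91%) higher, against 11.8% and 6.53% of all regions. Of the 40, 34 had no peak in any knockout library, and 7 of the 11 had none in any control. These 34 and 7 could enter the fit only because all 3 libraries of the other genotype had a peak. With no such filter, 7 border regions (0.554%) were called lower and 1 (0.0791%) higher, against 0.496% and 0.0905% of all regions. The calls also rest on single libraries. Without any 1 of the 3 control libraries or without knockout chimera 3, 0 border regions and 0 of all regions passed in either direction. At an unadjusted p under 0.05, 74 to 79 border regions were lower (8.28% to 8.84%), against 7.56% to 10.0% of all regions. Between 20 and 31 were higher (2.24% to 3.47%), against 4.21% to 7.02% of all. Without knockout chimera 4, 6 (0.671%) were lower and 0 higher, against 0.536% and 0.0311% of all regions. Without knockout chimera 2, 85 (9.51%) were lower and 3 (0.336%) higher, against 5.22% and 0.722% of all.

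Over all 1264 border regions, tested or not, the median log2 difference in covered bases was −0.26, and over all 34256 regions it was −0.05. With the libraries of chimeras 3 and 4 only, the medians over tested regions were −0.46 for border regions and 0.01 for all. Among the 442 border regions with peaks in all 6 libraries the median was −0.07, and 0.01 over 15032 such regions, a choice that by itself leaves out regions whose peak is gone in a library.

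The regions called are given by their values. In the fit of all 6 libraries the adjusted p-values of the 10 largest differences named in each direction ran from 0.0238 to 0.0464, and with chimeras 3 and 4 only they ran from 0.0671 to 0.181 in the same directions, so none is called outside the rule.

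The largest difference towards lower H3K27ac was at chr7:25480590-25483334, where H3K27ac covered 2745, 2616 and 2745 bases in control chimeras 2, 3 and 4 and 0 bases in each knockout library. Within 20 kb of it, H3K27me3 was found only in knockout chimera 2, 4010 bp from the edge. The same pattern of H3K27ac held at chr9:67700415-67701655, with 1241, 1209 and 1080 bases in the controls against 0 in the knockouts. Its H3K27me3 neighbour stood 1663 bp away in knockout chimera 2, but 14203 bp away in control chimera 2 and 14496 bp away in knockout chimera 1. At chr4:134880360-134881722 the bases were 1363, 736 and 993 against 0, and H3K27me3 lay 3173 bp away in control chimera 1, 9134 bp in control chimera 2, 10684 bp in knockout chimera 1 and 3138 bp in knockout chimera 2. In all 3 regions the nearest H3K27me3 was that of knockout chimera 2, whose list is the longest.

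Among the 11 called higher, a pair of neighbours on chromosome 10 showed the largest gain in length. At chr10:93481329-93483218 H3K27ac covered 356, 0 and 0 bases in the controls against 1890, 1890 and 1885 bases in the knockouts (log2 difference 3.57, SE 0.63, on the scale of log2 of bases plus 100). At chr10:93475966-93480153, just before it, the bases were 2732, 2085 and 2428 in the controls against 4188, 4064 and 3831 in the knockouts (log2 difference 0.71, SE 0.10). All knockout libraries were above all control libraries at both. H3K27me3 covered 1210 bases of the second region in control chimera 2 and 0 in control chimera 1 and in both knockouts. A region flanked on both sides, chr5:139916398-139918630, had 1540, 1385 and 1641 bases in the controls against 2233, 2142 and 2045 bases in the knockouts (log2 difference 0.46, SE 0.10). There the nearest H3K27me3 stood 3198 bp away in control chimera 2 and 2727 bp in knockout chimera 2, and 10003 and 9250 bp away in control and knockout chimera 1.

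The marks overlapped in 62 border regions, and at most of these each mark came from a different genotype. H3K27ac of control chimera 2 met H3K27me3 of knockout chimera 2 in 30 regions, and H3K27ac of knockout chimera 2 met H3K27me3 of control chimera 2 in 5. In another 2 the overlap was across genotypes although both H3K27ac lists had a peak, and in 25 the marks shared bases within a genotype, in 5 of these within both genotypes. The knockout list of H3K27me3 is the longer, so the excess of the first kind over the second was not tested. The libraries outside the rule repeated part of the pattern. Of the 30, 12 had H3K27ac peaks in control chimeras 3 and 4 and in neither knockout chimera 3 nor 4, another 12 had none in any of these 4 lists, and 7 had H3K27me3 in knockout chimera 1 as well. Of the 5 in the opposite direction, 2 had H3K27ac peaks in knockout chimeras 3 and 4 and in neither control chimera 3 nor 4. Another 3 had none in any of these 4 lists, and 1 had H3K27me3 in control chimera 1 as well.

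The clearest exchange of marks was at chr16:90127139-90128404, a region of 1266 bp. H3K27ac covered 1266, 598 and 983 bases in control chimeras 2, 3 and 4 and 0 bases in the 3 knockout libraries. H3K27me3 covered 0 bases in both controls, 1114 bases in knockout chimera 1 and 1266 bases in knockout chimera 2. At chr4:141679213-141680364, 1152 bp wide, H3K27ac covered 1152, 877 and 489 bases in the controls against 0 in the knockouts, and H3K27me3 covered 0 and 0 bases in the controls against 561 and 787 bases in knockout chimeras 1 and 2. At chr18:12775919-12777486 H3K27ac went from 1568, 1134 and 874 bases in the controls to 0 in every knockout library. H3K27me3 covered 198 bases of it in control chimera 2 and all 1568 in knockout chimera 2, and stood 72 bp from its edge in knockout chimera 1.

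In 23 of the 30 regions H3K27me3 was found in knockout chimera 2 alone, and 6 of these were spread over chromosome 14 between 14980707 and 17320988. At chr14:16727762-16729181 H3K27ac covered 1420, 1420 and 1287 bases in the controls against 0 in the knockouts, and at chr14:17080182-17081720 it covered 1539, 1533 and 829 bases against 0. H3K27me3 covered 494 and 294 bases of these regions in knockout chimera 2 and 0 in the other 3 lists. Of the other 4, chr14:14981759-14982083 and chr14:15579525-15580892 also had H3K27ac in knockout chimera 3, over 325 and 761 bases. This group was singled out after its values were seen.

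**Figure D5:**
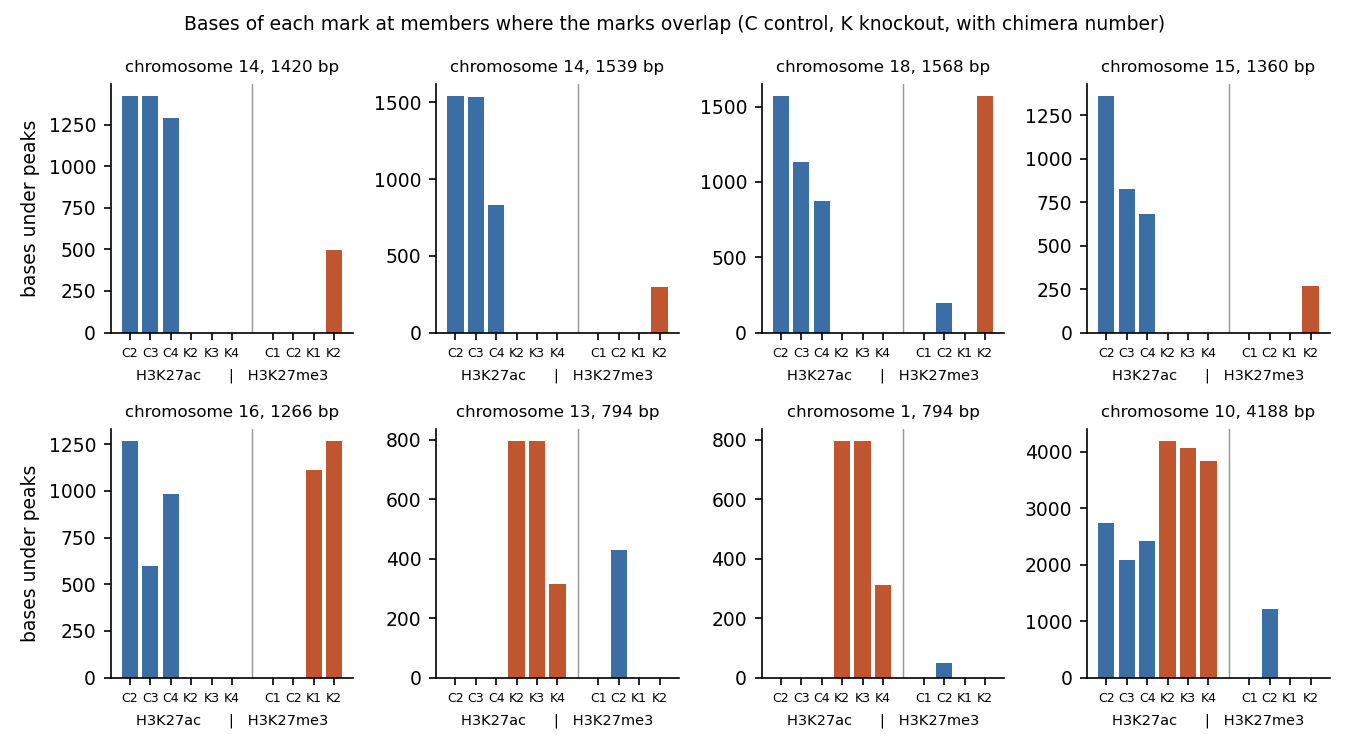
Bases under H3K27ac peaks (left of the grey line) and under H3K27me3 peaks (right of it) in each library, at the 8 border regions with overlapping marks that are among the 10 largest differences named in each direction, with controls in blue and knockouts in orange. The vertical axis of each panel ends just above the width of the region. On chromosome 16, H3K27ac is present in the 3 controls only and H3K27me3 in both knockouts only.

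The exchange was also counted over all border regions, overlapping or not. Of 224 border regions with H3K27ac in control chimera 2 and not in knockout chimera 2, 41 (18.3%) repeated this in chimeras 3 and 4, and of 7837 such other regions 1070 (13.7%) did. In the opposite direction 8 of 194 border regions (4.12%) and 464 of 4887 other regions (9.49%) repeated. Of the 41, 27 bordered H3K27me3 of knockout chimera 2 alone and 14 that of both chimera 2 lists; 65.9% bordered the knockout list alone, where 38.4% of all border regions did. Of the 8, 3 bordered H3K27me3 of control chimera 2 alone (37.5%, where 8.70% of all border regions did), 3 both lists and 2 knockout chimera 2 alone. These lists chose the regions, so the shares are a description. In the lists that did not, 16 of the 41 and 1 of the 8 had H3K27me3 within 5 kb in knockout chimera 1, and 2 of the 41 and 1 of the 8 in control chimera 1. In 5 of the 27, H3K27me3 was within 5 kb in both knockouts and in neither control.

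Of those 5, the regions on chromosomes 4 and 16 are given above. At chr2:69934917-69936672 H3K27ac covered 1756, 915 and 1713 bases in the controls against 0 in the knockouts. H3K27me3 began 2362 bp from its edge in both knockout chimera 1 and knockout chimera 2, and 13277 bp away in control chimera 2. At chr9:104214490-104215252 H3K27ac covered 763, 689 and 763 bases in the controls against 0 in the knockouts. H3K27me3 overlapped that region by 227 bases in knockout chimera 2 and stood 745 bp away in knockout chimera 1. The fifth, chr18:60765781-60766502, had 722 bases in each control and 0 in each knockout, and H3K27me3 at 5000 bp in knockout chimera 1, 4146 bp in knockout chimera 2 and 5145 bp in control chimera 2, so that the limit of 5 kb alone parts its genotypes.

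Some overlaps held both marks within a genotype. At chr18:55119904-55121363 H3K27ac covered 779, 853 and 1119 bases in the controls against 1460, 1460 and 531 in the knockouts, with overlapping groups. H3K27me3 covered 1270 bases of it in control chimera 2, 1460 in knockout chimera 2 and 0 in chimera 1 of both genotypes. At chr3:82052112-82053145 H3K27me3 covered 653 bases in control chimera 2, 973 in knockout chimera 1 and 1034 in knockout chimera 2. The H3K27ac there covered 1034, 878 and 810 bases in the controls against 437, 0 and 0 in the knockouts, which do not overlap. Each mark was read from another library of many cells, so an overlap does not show both marks on the same chromosome copy.

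The H3K27me3 beside border regions was compared over the 10 kb outward of each flanked side. Of 1262 such flanks, 18.9% and 77.3% held H3K27me3 in control chimeras 1 and 2, and 56.1% and 95.3% in knockout chimeras 1 and 2. The median number of bases under H3K27me3 was 0 and 928 in the controls against 381 and 1964 in the knockouts. Within each chimera number the knockout was higher, and knockout chimera 1 lay between the controls. The flanks were chosen with the chimera 2 lists, and the list of control chimera 1 is short, so what follows is a description and not a test of the difference between genotypes. A limma fit over 2182 flanks of all H3K27ac regions called 0 lower and 0 higher in the knockout (0.0% each). At an unadjusted p under 0.05, 15 of the 993 border flanks in the fit (1.51%) were lower and 67 (6.75%) higher, against 1.70% and 4.67% of all flanks. The median log2 difference was 0.85 for border flanks and 0.46 for all. Without control chimera 2, which leaves the short list of control chimera 1 as the only control, 30 border flanks (3.02%) were called lower and 208 (20.9%) higher, against 2.93% and 11.7% of all flanks. Without control chimera 1, 0 were lower and 3 (0.302%) higher, against 0.183% of all, and the medians turned to −0.39 and −0.49. Both knockouts were above both controls at 27.8% of border flanks and 27.9% of all flanks, and below both at 0.101% and 0.733%.

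The largest difference was in the flank of chr2:69957964-69958197 on the side of higher coordinates, with 0 and 0 bases of H3K27me3 in the controls against 3956 and 6384 bases in knockout chimeras 1 and 2. This border region lies a little further along the chromosome than chr2:69934917-69936672, described above. In the flank of chr16:90130832-90131222 towards lower coordinates, which holds the exchange at chr16:90127139-90128404, H3K27me3 covered 0 and 0 bases in the controls against 4023 and 4926 bases in the knockouts. H3K27ac at chr16:90130832-90131222 itself was also found in control chimera 2 alone, over 391 bases. At chr14:56540633-56541771 the flank held 0 and 0 bases against 1762 and 4820 bases, while the H3K27ac region itself had 800, 614 and 814 bases in the controls against 1136, 1139 and 479 in the knockouts, which overlap. The reverse was seen at chr6:49185237-49185948, whose flank held 406 and 373 bases in the controls against 0 and 0 in the knockouts. The H3K27ac of that region was found in knockout chimera 2 alone, over 712 bases.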

How the data were processed

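Per the submitters' processing notes, the tools were Bowtie2 2.2.4, deepTools 3.5.1, MACS2, ChIPseeker 1.30.3 and HOMER 4.11, with build mm39. Settings, the treatment of duplicates and whether an IgG library served as background are not given in the sources used here. The authors deposited a separate peak list for every library. Each peak's fold enrichment was deposited as a ratio and its p-value as −log10, and both were used only to describe, rank or filter peaks within a list. The 4 IgG samples were not analysed here.

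Covered bases and edge positions per library were computed in Python 3.11.15. Differences between genotypes were fitted in R 4.3.3 by limma 3.58.1 (options trend and robust) on log2(covered bases + 100) centred per library, over regions covered in at least 3 H3K27ac libraries or flanks covered in at least 2 H3K27me3 libraries, with Benjamini-Hochberg adjustment over all features tested and a threshold of 0.05. Edge positions were fitted in kb, with the robust option and without trend, for regions with a peak in all 6 lists. The fits were also run on simulated data, an outcome not given here. The edge shifts simulated were of 1 kb or more, so the run does not show whether smaller edge shifts would be called. Single values per library were compared by two-sided exact permutation tests. Because 1 list covers 1 library, precision is limited by the number of libraries.

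The border regions, tests and lists were chosen with earlier results of these data known. Regions were named by rule: up to 12 with both marks in all lists by mean −log10 p, up to 10 called per direction by size of change, up to 5 edges and flanks per direction whose genotypes do not overlap, up to 5 flanked on both sides and up to 5 by longest overlap. The regions with H3K27me3 in the other genotype only, and the overlaps within a genotype, were singled out after their values were seen. The sequence and gene tables at hand are of GRCm38.p6, another build, so gene lists, promoters and sequences were not used here. Alternatives covered the distance, peak strength, stitching, pseudocount, scaling, filters, flank length, left-out libraries and the replicate number as a block.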

Additional observations from a re-analysis of the deposited data

How the results depend on the processing

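With a limit of 2000 or 10000 bp there were 349 or 2852 border regions, and 458 from peaks above the median −log10 p of each list. The median gap in these 3 settings and with H3K27me3 stitched at 3 kb was 1576.5, 6036.5, 3704 and 3487.5 bp against the control list, and 1444.5, 5656, 3134 and 3097 bp against the knockout list. The border shift in chimera 2 was 142.5 bp with the stronger peaks, 143 bp with stitching and, in settings added after seeing the data, 118 bp with lists of equal length and −71 bp, the reverse direction, with knockout chimera 1. The share of H3K27ac on border regions and the edge difference kept their direction in every alternative run, in a design too small for the test to pass; leaving out 1 library gave −0.598 to −0.0347 percentage points and −63.7 to −30.5 bp, leaving out both chimera 2 libraries −0.489 and −82.4, the limits of 2000 and 10000 bp −0.130 and −0.490 points and −65.9 and −31.0 bp, and the stronger peaks −0.191 points and −162 bp. For H3K27ac calls on border regions, leaving out 1 library gave 0 to 85 lower and 0 to 3 higher, and leaving out both chimera 2 libraries gave 0 and 0. Counts lower and higher were 16 and 6 with the stronger peaks, 7 and 1 with no filter, 2 and 1 with peaks in all 6 libraries, 18 and 2 with regions extended by 1000 bp, 21 and 5 at 2000 bp and 79 and 29 at 10000 bp, and quantile normalization gave 18 lower. Of the 20 named calls, none changed direction and 19 or 20 held with other pseudocounts or no centring; 7 held with no filter, 13 without knockout chimera 2, 5 without knockout chimera 4 and 0 without any of the other 4 libraries. Flanked edges called were 0 to 9 inward and 0 to 2 outward with 1 library left out, and 5 and 1 without both chimera 2 libraries. H3K27me3 flanks called were 0 to 30 lower and 0 to 208 higher with 1 library left out, and a pseudocount of 1000 gave 2 higher. The causes were not tested. Both genotypes use the same replicate numbers, but the labels do not say that samples of a number belong together, so the numbers were not taken as pairs. Same-numbered H3K27ac samples correlated at 0.241, 0.0644 and 0.0146, and differently numbered ones at −0.188 to 0.146. Of the H3K27ac samples, only those numbered 1 correlated best with their own number. H3K27me3 samples correlated at 0.133 with the same number and at −0.133 with the other. With the replicate number as a block, 0 border regions were called lower and 0 higher, and 0 of all regions were. At an unadjusted p under 0.05, 106 border regions (11.9%) were lower and 23 (2.57%) higher, against 10.3% and 5.76% of all regions. With that block 0 edges were called, and 1 border H3K27me3 flank (0.101%) was lower, against 0.321% of all flanks.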

Other observations

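Some loci gathered several border regions. On chromosome 6, 9 border regions and 4 other H3K27ac regions stood between 122239545 and 122317676, over 78.1 kb. H3K27ac covered 9323, 3529 and 3828 bases of this locus in control chimeras 2, 3 and 4 and 3225, 2777 and 594 bases in knockout chimeras 2, 3 and 4. All controls were above all knockouts. H3K27me3 covered 0 bases in both controls, 427 in knockout chimera 1 and 4264 in knockout chimera 2.

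On chromosome 18, 5 border regions lay between 12767754 and 12778231. H3K27ac covered 3292, 1879 and 874 bases there in the controls against 0 bases in each knockout library, and H3K27me3 covered 0 and 227 bases in control chimeras 1 and 2 and 2758 and 5153 bases in knockout chimeras 1 and 2. On chromosome 5, between 122307076 and 122314150, 5 border regions held 3404, 3053 and 2006 bases of H3K27ac in the controls against 1608, 4283 and 2323 in the knockouts, which overlap, and 270 bases of H3K27me3 in knockout chimera 2 with 0 in the other 3 lists. These loci were ordered by their number of border regions and were not tested.

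The smallest gap was 1 bp, on the side of higher coordinates of chr14:18816520-18816921 in knockout chimera 2, where H3K27ac covered 402 bases in control chimera 2 and 0 in the other 5 H3K27ac lists. At chr18:66591376-66592599, with a gap of 21 bp in knockout chimera 2 and 1377 bp in control chimera 2, H3K27ac covered 1224, 376 and 695 bases in the controls against 888, 521 and 0 bases in the knockouts, which overlap.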
